A study of Homo sapiens with 3 samples.

Results

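The interferon-stimulated effector genes are the transcripts that cells raise when they are exposed to interferon and whose proteins act on viruses, nucleic acids or protein modification. Here they are 48 genes chosen by name, with the OAS, IRF and TRIM genes left out, and every probe annotated to them was taken. The choice was made with earlier results of these data known, so counts set beside those of all genes describe the list and test nothing. Of the 48 genes, 47 had a named probe, among 19367 genes named on the array. STAT2 had none here and was not analysed. The 47 genes were read by 56 of the 24303 named probes, and 41 of them by 1 probe alone.

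The cells were L428tetPU.1, a derivative of L428, an established line of classical Hodgkin lymphoma, in which a PU.1 gene (SPI1, a transcription factor of the ETS family in myeloid and B cells) is switched on by taking tetracycline out of the medium. RNA was read on 3 Illumina bead arrays, with 1 array for each of day 0, day 1 and day 3 of tetracycline removal. All 3 arrays came from cells that carry the inducible gene, and no line without it and no culture kept in tetracycline for the same days was analysed here. The sources used here do not say whether the line is a clone, nor whether RNA was pooled. With 1 array a day there was no replicate error, no test between days and no p-value.

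Interferons bind receptors whose kinases, JAK1, JAK2 and TYK2, phosphorylate transcription factors of the STAT family. Type I and type III interferons assemble the complex ISGF3, of which STAT2 and IRF9 are parts and which binds the interferon-stimulated response element (ISRE) in the promoters of the effector genes. IRF factors bind the same element, and PU.1 can bind next to IRF4 or IRF8 at ETS-IRF composite elements, where an ETS site adjoins an IRF site. Interferon gamma acts through the gamma-activated site. The effector proteins bind foreign RNA, block the entry, copying or release of viruses, and attach the ubiquitin-like protein ISG15 to other proteins.

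The promoter stretches below carry matches to sequence elements that were searched in these genes. They come from RefSeq windows of GRCh38.p14 that run from 250 bases before to 50 bases after the start of a transcript, read on the strand of the gene. Capitals mark a match on either strand to the ISRE core GAAANNGAAA or to the ETS-IRF composite core GGAANNGAAA, and these matches can overlap. ISG15 and BST2 are shown because 2 ISRE cores overlap there, IFIT1, IFIT3, IFIT5, IFI6 and IFITM1 because they hold several, and IFI44L because both of its pairs of matches lie in a repeat.
ISG15 (chr1:1013369-1013414, plus strand): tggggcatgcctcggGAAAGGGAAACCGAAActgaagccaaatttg
BST2 (chr19:17405730-17405775, minus strand): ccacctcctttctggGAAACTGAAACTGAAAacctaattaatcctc
IFIT1 (chr10:89392492-89392544, plus strand): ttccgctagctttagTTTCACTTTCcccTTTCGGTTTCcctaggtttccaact
IFIT3 (chr10:89332420-89332508, plus strand): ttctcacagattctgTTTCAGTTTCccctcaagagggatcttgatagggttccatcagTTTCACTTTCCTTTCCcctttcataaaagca
IFIT5 (chr10:89414508-89414588, plus strand): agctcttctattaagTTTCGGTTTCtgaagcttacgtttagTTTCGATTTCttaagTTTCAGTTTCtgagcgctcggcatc
IFITM1 (chr11:313985-314058, plus strand): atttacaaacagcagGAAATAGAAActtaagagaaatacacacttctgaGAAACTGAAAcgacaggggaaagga
IFI6 (chr1:27672261-27672363, minus strand): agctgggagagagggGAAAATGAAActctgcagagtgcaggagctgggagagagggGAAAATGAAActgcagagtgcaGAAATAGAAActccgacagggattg
IFI44L (chr1:78620252-78620399, plus strand): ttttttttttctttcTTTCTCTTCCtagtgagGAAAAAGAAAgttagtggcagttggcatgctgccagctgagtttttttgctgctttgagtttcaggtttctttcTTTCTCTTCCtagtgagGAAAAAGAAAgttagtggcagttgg
PARP9, PARP14, HERC5, PLSCR1 and RSAD2 are shown because they hold the ETS-IRF core, in PARP9, PARP14 and HERC5 overlapping with an ISRE core.
PARP9 (chr3:122564311-122564356, minus strand): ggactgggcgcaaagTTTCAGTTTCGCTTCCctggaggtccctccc
PARP14 (chr3:122680789-122680834, plus strand): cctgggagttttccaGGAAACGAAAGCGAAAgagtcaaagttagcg
HERC5 (chr4:88456979-88457069, plus strand): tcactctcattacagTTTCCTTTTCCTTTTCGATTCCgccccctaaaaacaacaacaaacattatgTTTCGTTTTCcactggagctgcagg
PLSCR1 (chr3:146544629-146544701, minus strand): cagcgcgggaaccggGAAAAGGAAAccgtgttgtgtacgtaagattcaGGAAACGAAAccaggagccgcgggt
RSAD2 (chr2:6865717-6865848, plus strand): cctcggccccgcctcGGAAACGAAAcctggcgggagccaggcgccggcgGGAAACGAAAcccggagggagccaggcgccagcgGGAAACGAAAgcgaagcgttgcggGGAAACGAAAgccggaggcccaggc
In SAMD9L the capitals mark the only match among the 39 genes with a window to the PU.1 core GAGGAAGT, on the opposite strand.
SAMD9L (chr7:93148387-93148424, minus strand): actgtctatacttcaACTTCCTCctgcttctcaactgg

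A promoter window was matched for 39 of the 48 genes. The ISRE core lay in the windows of 28 of these 39 genes, or 71.8%, against 4.38% of the 27305 genes with a window. The ETS-IRF core lay in 12 of 39, or 30.8%, against 3.47% of all genes. The gamma-activated site TTCNNNGAA lay in 10 of 39, or 25.6%, against 9.38%, and the PU.1 core in 1 of 39, or 2.56%, against 3.15%. The share with a PU.1 core was thus near that of all promoters. The matches were searched in known interferon-stimulated genes. An excess of ISRE cores, ETS-IRF cores or gamma-activated sites thus describes the list and is no result of the arrays. The ISRE and ETS-IRF cores differ only in their second base, and in PARP9, PARP14 and HERC5 their matches overlap, so their shares are not independent.

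**Figure D1:**
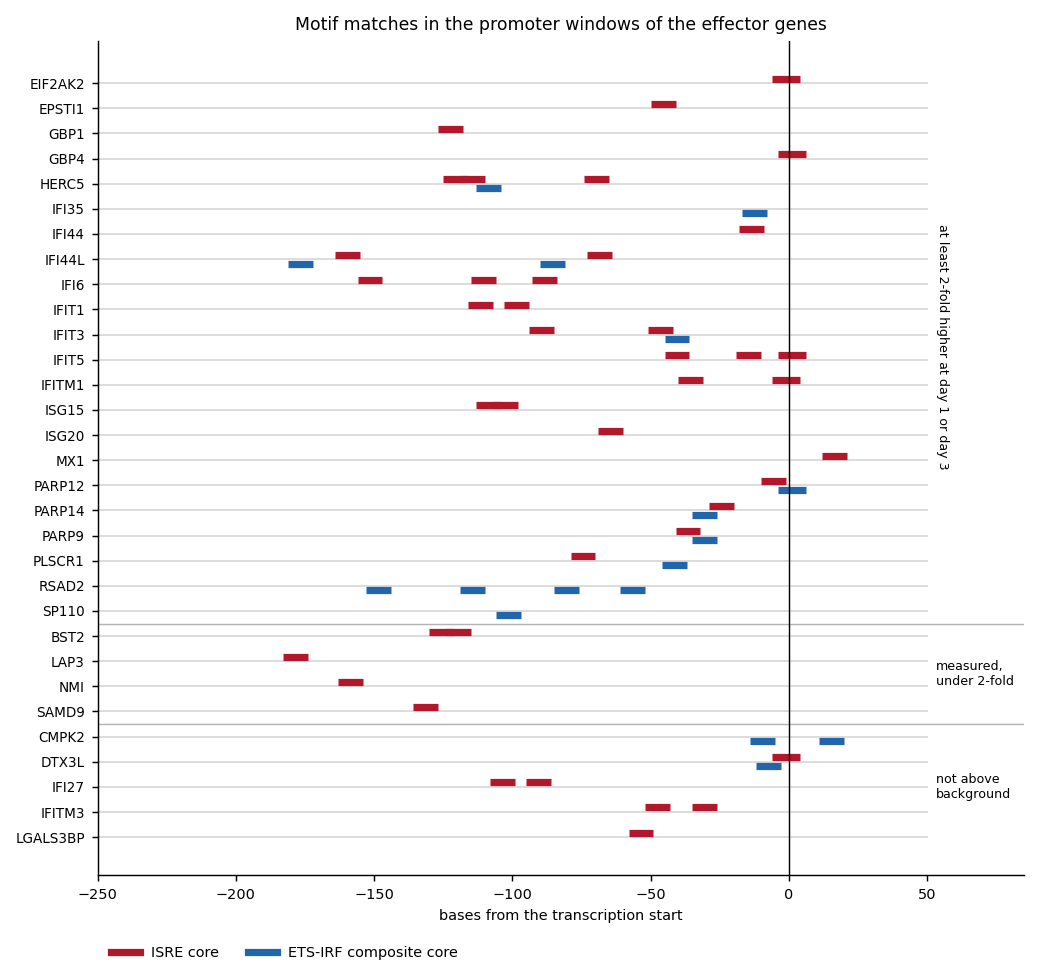
Positions of ISRE cores (red) and ETS-IRF composite cores (blue) in the promoter windows of the 31 effector genes with such a match, in bases from the transcription start, with the window of most matches drawn for each gene. Genes at least 2-fold higher at day 1 or day 3 than at day 0 stand at the top, measured genes under 2-fold below them and genes not above background at the bottom.

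The intensities were corrected for background, quantile normalized and put on a log2 scale, called log2 signal below. Signals whose detection p-value lay below 0.01 count as above background, and each gene was read from its brightest probe. By this measure 35 of the 47 genes were above background on all 3 arrays, 5 on some (IFITM2, ZBP1, RSAD2, SAMD9 and APOL1, none of them at day 0), and 7 on none (APOL6, CMPK2, DTX3L, IFI27, IFITM3, LGALS3BP and MX2). Below, "rose" and "fell" stand for a change of at least 2-fold. Where 1 of the 2 arrays lay below background, a bound against the dimmest signal above background there also had to reach 2-fold, and is written "at least N-fold".

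Most of the effector genes stood higher after tetracycline removal, and none fell. At day 1, 24 of the 40 measured genes rose against day 0, where 9.19% of 9311 measured genes rose. At day 3, 28 of 40 rose against day 0, where 4.95% of 9190 genes rose. In no gene of the list did the signal fall 2-fold at either day, where 7.98% of all measured genes fell at day 1 and 2.13% at day 3. The median log2 change was 1.23 at day 1, with all measured genes at -0.05, and 1.84 at day 3, with all measured genes at -0.06. With the genes below background at day 0 set at their bounds the medians of the list were 1.18 and 1.69.

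The 5 genes below background at day 0 entered only through the later arrays. Among the 35 genes above background on all 3 arrays, 22 rose at day 1, where 8.71% of 8090 genes did, and 26 rose at day 3, where 4.41% did. Their median log2 change was 1.18 at day 1 and 1.90 at day 3. Log2 changes of the 40 genes ran from -0.64 to 3.33 at day 1, with 38 of 40 above 0 where 46.9% of all measured genes were. At day 3 they ran from 0.10 to 4.22, with all 40 above 0 where 45.0% of all measured genes were. For genes above background on all 3 arrays, 33 of 35 were above 0 at day 1, where 44.9% of 8090 genes were. At day 3 all 35 were, where 43.3% of 8090 genes were. The lowest of them, BST2, lay within the probe error given below (SD of 0.29), and under 0 after scaling to the 75th percentile.

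The count over all genes depended on the scaling, while the list stayed one-sided. With quantile normalization 856 genes rose and 743 fell at day 1, against 727 and 1004 after scaling to the 75th percentile. At day 3 it was 455 and 196, against 374 and 363. Both comparisons with day 0 use the same day 0 array, so an error in it enters both. The spread between probes of 1 gene gave the only error available. Over 416 genes with 2 probes above background it came to an SD of 0.36 log2 at day 1 and 0.29 at day 3, and neither cultures nor RNA preparations enter it.

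**Figure D2:**
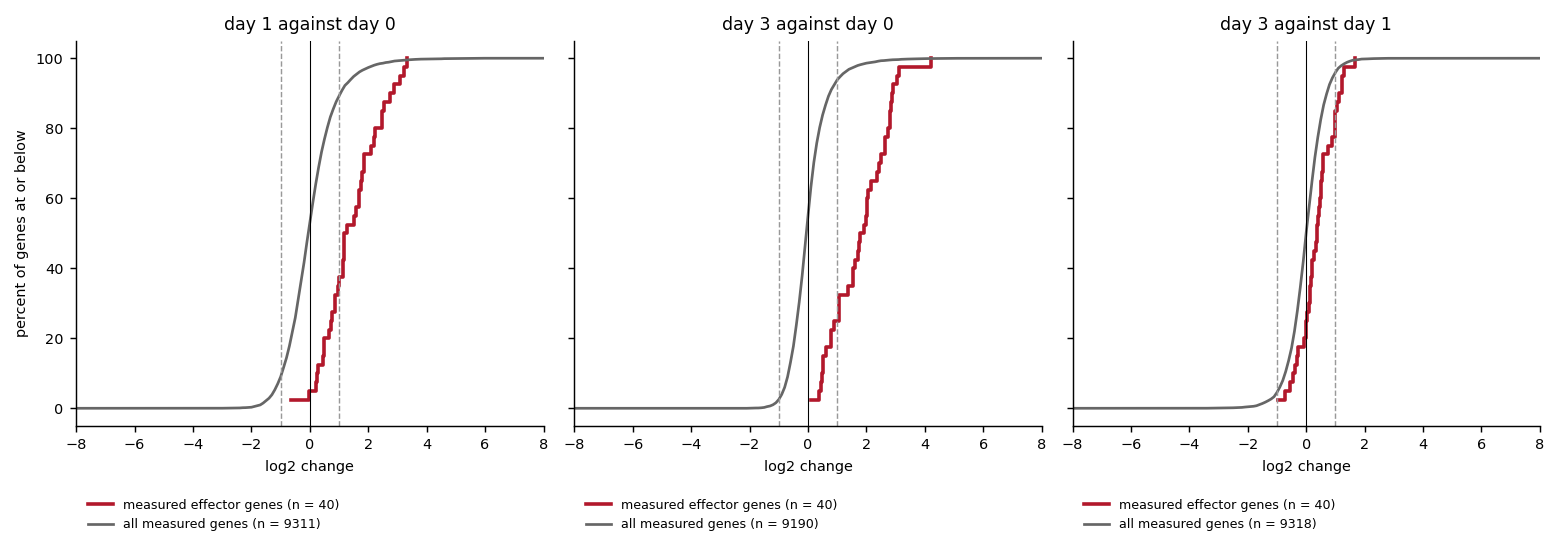
Cumulative distribution of log2 changes for the 40 measured effector genes (red) and for all measured genes (grey) in the 3 comparisons, with dashed lines at 2-fold. The red curve lies to the right of the grey one, with a median of 1.23 against -0.05 at day 1 and 1.84 against -0.06 at day 3, and nearer to it for day 3 against day 1, with 0.37 against 0.

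The IFIT genes encode proteins of tetratricopeptide repeats that bind viral RNA, and IFIT2, IFIT3, IFIT1 and IFIT5 lie close together on chromosome 10. All 4 rose at day 3. IFIT1, which binds capped RNA that lacks a methyl mark of the host, had a log2 signal of 6.62 at day 0, 8.30 at day 1 and 9.41 at day 3. It was 3.22-fold higher at day 1 and 6.95-fold higher at day 3 than at day 0. IFIT2 had 8.05, 10.57 and 10.70, and was 5.75-fold and 6.27-fold higher.

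Nearly the whole rise of IFIT2 was thus present at day 1, while IFIT1 climbed at each step. IFIT3, which binds and stabilises IFIT1, had 8.40, 10.51 and 10.90 at day 0, day 1 and day 3, and was 4.31-fold and 5.65-fold higher than at day 0. IFIT5 had 5.78, 6.74 and 7.31. At day 1 it was 1.95-fold higher, short of the size rule, and at day 3 it rose 2.88-fold. The second probe of IFIT1 and both other probes of IFIT3 were not above background on any array.

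The membrane factors act where viruses enter or leave the cell, and their 3 measured genes went different ways. IFITM1, an antiviral protein of the cell surface, had a log2 signal of 8.29 at day 0, 9.78 at day 1 and 10.30 at day 3, and rose 2.83-fold at day 1 and 4.05-fold at day 3. IFITM2, its relative of the endosome, was not above background at day 0. It had 4.80, 7.04 and 6.50, at least 2.5-fold higher at day 1, and its bound of 1.71-fold at day 3 missed the rule.

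The IFITM genes, neighbours on chromosome 11, are close in sequence, and a probe of a relative can read them. IFITM3 was not above background on any array, with intensities of 23.1, 23.5 and 24.5. BST2, or tetherin, which holds budding viruses at the cell surface, had log2 signals of 12.33, 11.69 and 12.42. It was 0.64 log2 lower at day 1 than at day 0 and 0.10 higher at day 3, both under 2-fold. The BST2 promoter holds the overlapping ISRE cores printed above.

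The dynamin-like and guanylate-binding GTPases assemble on viral or microbial structures. MX1, which traps viral nucleoprotein complexes, had a log2 signal of 9.71 at day 0, 12.16 at day 1 and 12.61 at day 3. It rose 5.48-fold and 7.46-fold against day 0. Its neighbour on chromosome 21, MX2, was not above background on any array. The 4 GBP genes, in a cluster on chromosome 1, all rose at day 1, and only GBP4 and GBP5 met the rule at day 3.

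GBP4 had 7.83, 9.40 and 9.85, a rise of 2.97-fold and 4.08-fold. GBP5, which helps to assemble inflammasomes, had 6.88, 8.67 and 8.66, a rise of 3.46-fold and 3.44-fold. These signals were level between day 1 and day 3. GBP1, the founding member of the family, had 8.0, 9.18 and 8.46, a rise of 2.27-fold at day 1, and was 1.37-fold higher at day 3. GBP2 had 7.04, 8.89 and 7.93, a rise of 3.61-fold at day 1, and was 1.86-fold higher at day 3. GBP1 and GBP2 thus had their highest signal at day 1, and GBP genes are alike enough that a probe may read a relative.

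ISG15 and its enzymes form a small conjugation system, in which UBE2L6 and HERC5 attach ISG15 to proteins and USP18 takes it off. ISG15 had a log2 signal of 9.99 at day 0, 10.44 at day 1 and 11.73 at day 3. It was 1.37-fold higher at day 1 and rose 3.34-fold at day 3. USP18, which also damps signalling at the type I interferon receptor, had 7.08, 7.83 and 9.05, 1.68-fold higher at day 1 and 3.93-fold at day 3.

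In both of these genes most of the rise came after day 1. HERC5, the ligase for ISG15 in human cells, had 9.81, 10.96 and 11.34, a rise of 2.22-fold and 2.88-fold. HERC6, its neighbour on chromosome 4, had 7.94, 9.70 and 9.31, a rise of 3.39-fold and 2.59-fold. UBE2L6, the conjugating enzyme, had 11.88, 12.09 and 12.25, and was 1.16-fold and 1.29-fold higher, under the rule at both days.

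Among the genes that sense or degrade nucleic acids, ZBP1 rose at both days and ISG20 and EIF2AK2 at day 3 alone. ZBP1, a sensor of Z-form nucleic acid that can trigger necroptosis, was not above background at day 0. Its log2 signals were 4.92, 7.67 and 7.36 at day 0, day 1 and day 3, or at least 3.87-fold higher at day 1 and at least 3.12-fold higher at day 3. ISG20, an exonuclease that degrades RNA, had 8.68, 9.67 and 11.33. It was 1.99-fold higher at day 1, just short of the rule, and rose 6.28-fold at day 3.

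EIF2AK2 encodes PKR, the kinase that halts translation on double-stranded RNA. It had 11.15, 11.64 and 12.20, and was 1.40-fold higher at day 1 and 2.06-fold at day 3, just past the rule. IFI16, a DNA sensor, had 9.34, 9.57 and 9.94, and ADAR, which edits adenosine in double-stranded RNA, had 10.67, 11.14 and 11.18. The changes of IFI16 (0.23 and 0.60 log2) and ADAR (0.47 and 0.51 log2) stayed under 2-fold.

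RSAD2 and CMPK2 lie head to head on chromosome 2, and together make a nucleotide analogue that ends viral RNA chains. RSAD2, or viperin, was not above background at day 0 and had intensities of 29.4, 95.9 and 177 on the arrays of day 0, day 1 and day 3. Its log2 signals of 4.49, 6.33 and 7.33 put it at least 1.52-fold higher at day 1, which missed the rule, and at least 3.04-fold higher at day 3. CMPK2, with intensities of 23.3, 31.7 and 37.5, was not above background on any array. The promoter windows of the pair share 165 bases (chr2:6865770-6865934 of GRCh38.p14), so the ETS-IRF cores printed above for RSAD2 lie in part within both windows.

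The largest rise in the list at day 3 was that of IFI44L. This gene and its neighbour IFI44 on chromosome 1 are markers of the response to type I interferon, and IFI44L is used in signatures of viral infection and lupus. IFI44L had log2 signals of 6.26, 9.49 and 10.47 at day 0, day 1 and day 3, from intensities of 94.5, 696.7 and 1378. It rose 9.41-fold at day 1 and 18.6-fold at day 3. IFI44 had 7.47, 9.17 and 10.22, a rise of 3.24-fold and 6.72-fold.

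Both neighbours were higher at day 3 than at day 1 too, IFI44 by 2.07-fold and IFI44L by 1.98-fold, just under the rule. The IFI44L promoter window holds an exact repeat of 85 bases whose copies start 91 bases apart, and each copy carries 1 ISRE core and 1 ETS-IRF core. IFI6, a mitochondrial and endoplasmic reticulum protein that opposes cell death, had 9.29, 10.16 and 10.37. It was 1.82-fold higher at day 1 and 2.11-fold at day 3. IFI27, with intensities of 36.6, 40.1 and 62.6, was not above background on any array, although its promoter also holds ISRE cores.

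IFI35 and NMI encode partner proteins that bind each other. IFI35 had 9.19, 10.37 and 11.24 at day 0, day 1 and day 3, a rise of 2.26-fold and 4.14-fold. NMI had 11.05, 11.76 and 11.85, and was 1.63-fold and 1.74-fold higher, under the rule.

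The PARP genes of the list rose early and stayed up. PARP9, which works with the ubiquitin ligase DTX3L, had a log2 signal of 6.48 at day 0, 9.57 at day 1 and 9.58 at day 3, a rise of 8.52-fold and 8.58-fold. PARP14, an ADP-ribosyltransferase near it on chromosome 3, had 7.52, 10.41 and 10.33, a rise of 7.43-fold and 7.03-fold. PARP12, an antiviral ADP-ribosyltransferase, had 9.06, 11.25 and 10.96, a rise of 4.56-fold and 3.74-fold. In none of the 3 did day 3 differ from day 1 by more than the probe error.

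PARP9 and DTX3L are transcribed apart from a shared promoter, whose windows overlap over 137 bases (chr3:122564251-122564387). The stretch printed for PARP9 lies within it, and its ISRE and ETS-IRF cores belong to the windows of both genes. The 1 probe for DTX3L was not above background on any array, with intensities of 34.5, 33.7 and 46.6, so the deposited values do not show whether DTX3L moved with PARP9.

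SP110, a nuclear body protein, had 8.34, 9.62 and 9.95, a rise of 2.43-fold and 3.05-fold. A second probe above background on all arrays changed by 1.37 log2 at day 1 and by 1.42 at day 3, the same way as the brightest. The third was not above background at day 0 and was only just above it later, with intensities of 36.3, 70.3 and 70.9, so it bears little on the change. SP100, a core protein of PML nuclear bodies, had 5.88, 6.14 and 6.41, close to background, with changes of 0.26 and 0.53 log2.

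SAMD9L and SAMD9 lie side by side on chromosome 7 and restrict poxviruses and cell growth. SAMD9L had the largest rise in the list at day 1. Its log2 signals were 7.38, 10.72 and 10.27 at day 0, day 1 and day 3, from intensities of 192.6, 1620.1 and 1205.8, and it rose 10.1-fold and 7.39-fold. SAMD9 was not above background at day 0, had 5.20, 6.07 and 6.28, and was at least 1.27-fold and 1.47-fold higher, under the rule. SAMD9L is the gene whose promoter window holds the PU.1 core printed above, and it holds no ISRE or ETS-IRF core.

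Of the other effectors, XAF1, PLSCR1 and EPSTI1 rose at both days. XAF1, which binds the apoptosis inhibitor XIAP, had 7.08, 9.54 and 10.12, a rise of 5.49-fold and 8.19-fold. PLSCR1, a phospholipid scramblase that restricts viruses, had 7.99, 9.13 and 10.34, a rise of 2.21-fold and 5.12-fold. EPSTI1, a protein induced in epithelial and immune cells by stroma or interferon, had 9.60, 10.76 and 11.74, a rise of 2.24-fold and 4.41-fold.

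APOL1, the trypanosome lytic factor, was not above background at day 0 and was at least 1.33-fold and 1.45-fold higher at day 1 and day 3. LAP3, a leucine aminopeptidase, had 11.44, 11.41 and 11.93, with changes of -0.03 and 0.48 log2. APOL6 and LGALS3BP were not above background on any array, with intensities between 36.2 and 44.8. The genes that did not rise were thus partly dim probes and partly genes, such as BST2, UBE2L6, LAP3 and NMI, that were bright on every array.

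**Figure D3:**
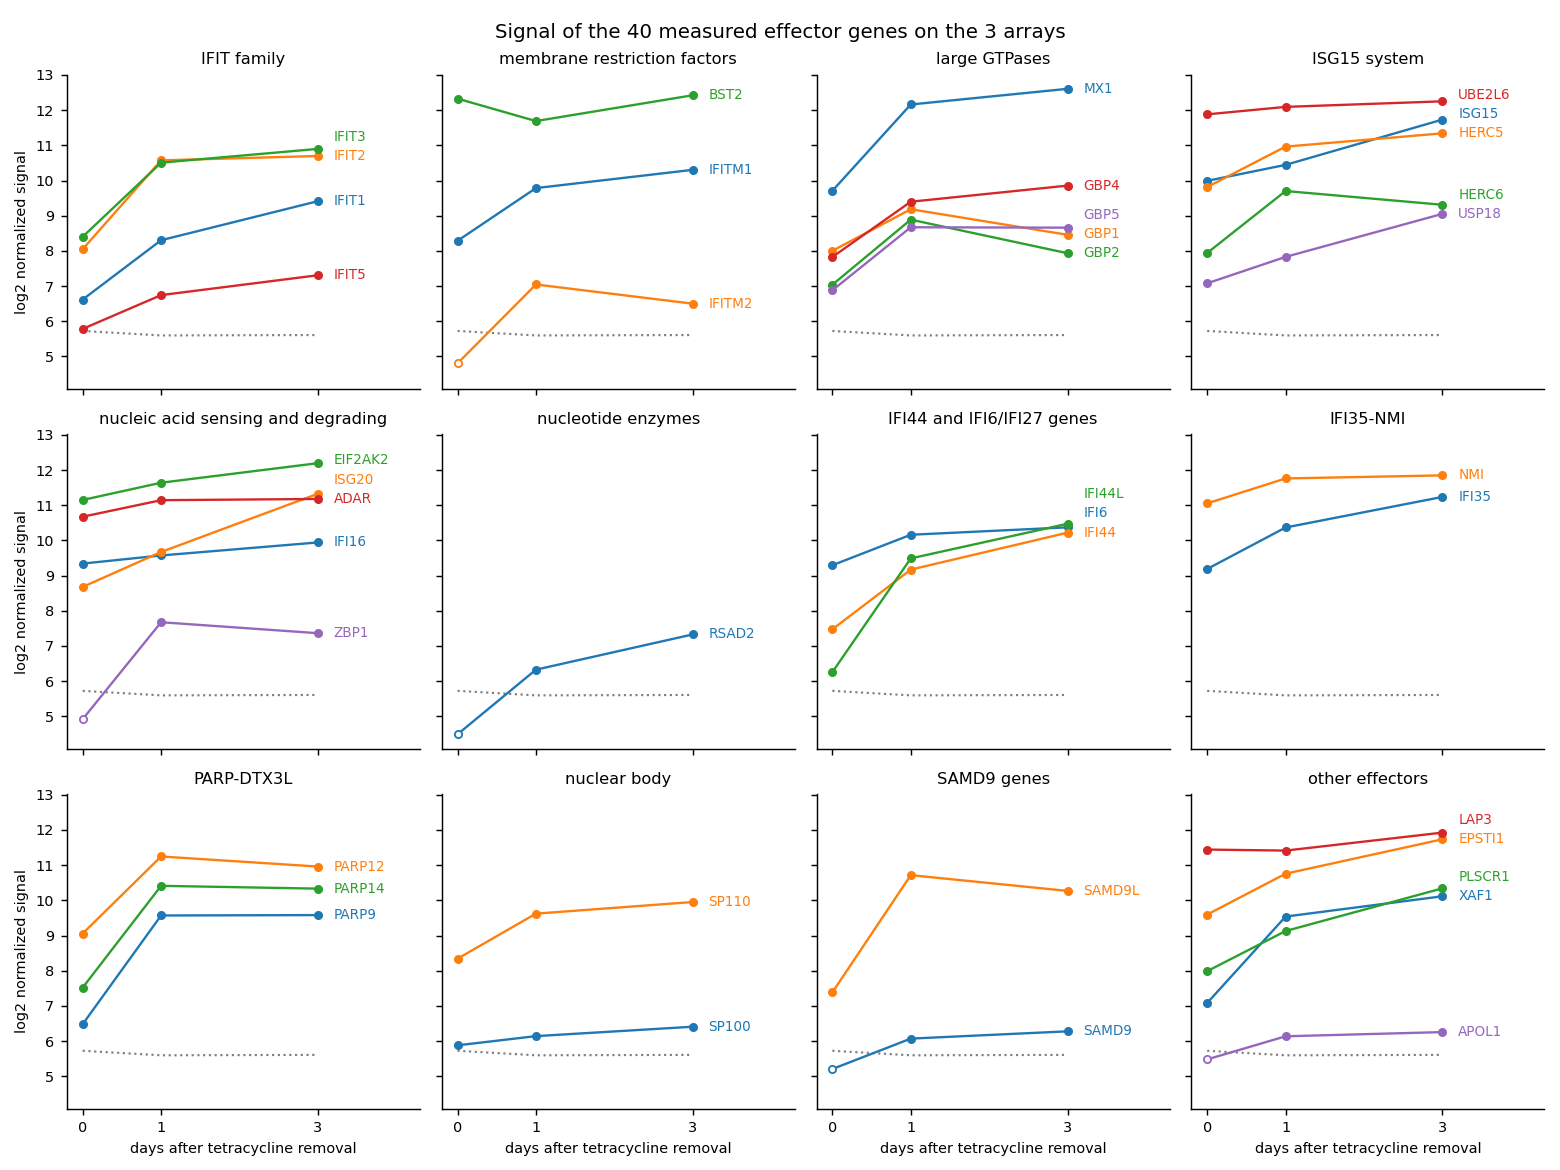
Log2 normalized signal of the 40 measured effector genes at day 0, day 1 and day 3, by role, with 1 array a day. Filled points are above background, open points are not, and the dotted line is the lowest signal above background on each array, between 5.60 and 5.72.

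**Figure D4:**
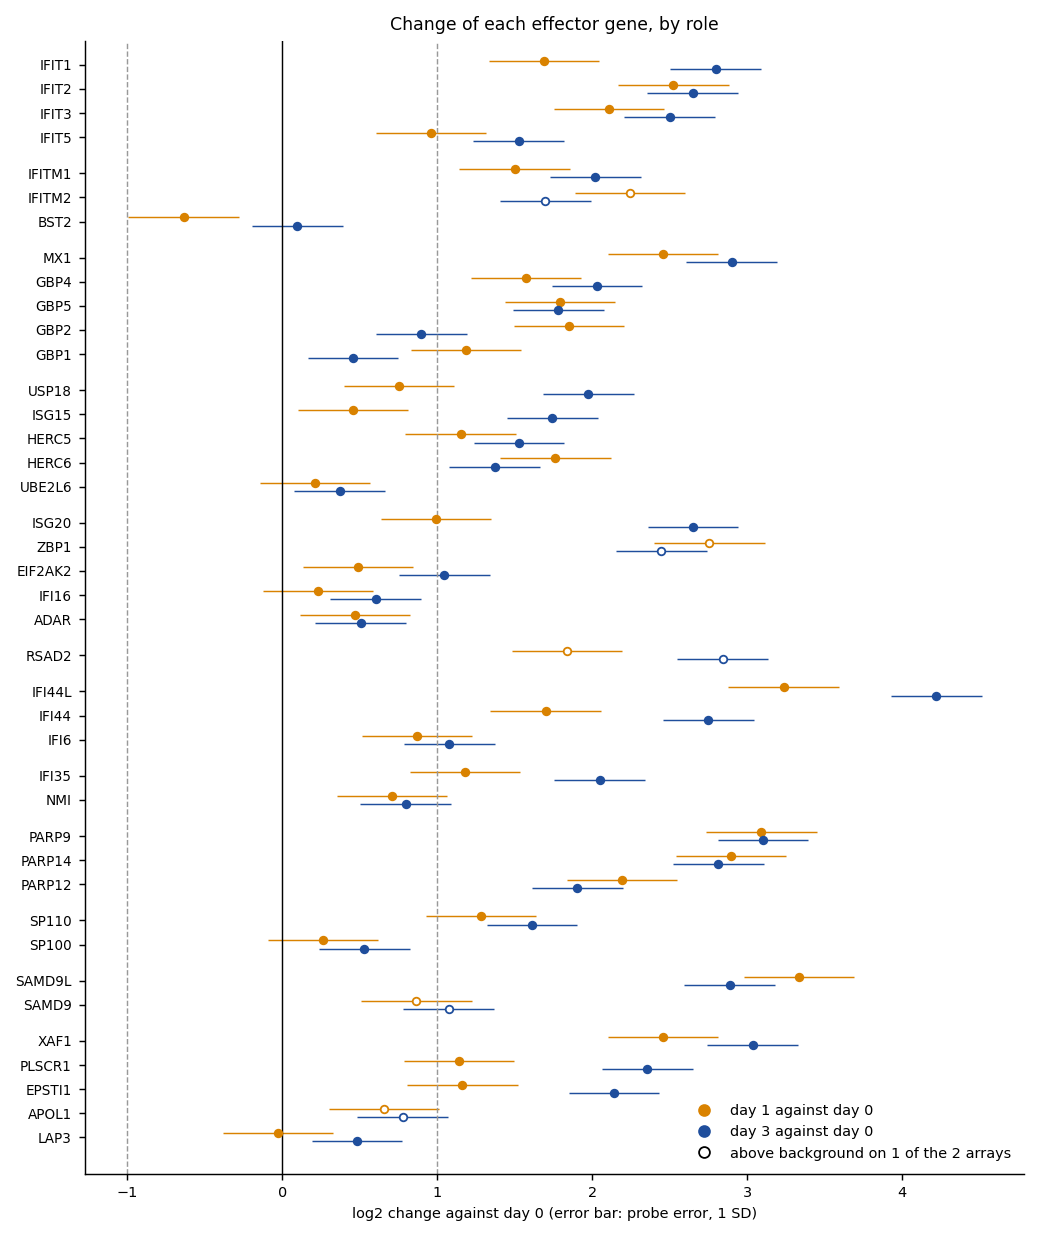
Log2 change of each measured effector gene at day 1 (orange) and day 3 (blue) against day 0, by role, with the probe error (1 SD) as error bars and dashed lines at 2-fold. The probe error was not taken from genes below background at day 0. At day 3 all 40 genes lie above 0, BST2 by only 0.10 and so within the probe error. At day 1 BST2 is the gene furthest below 0, at -0.64.

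Fewer of the genes passed the rule between day 1 and day 3. Of 40 measured genes 7 rose at day 3 against day 1, where 3.54% of 9318 genes did, and 0 fell, where 3.92% did. Among the 35 genes above background on all arrays 6 rose, where 3.65% of 8090 genes did. The genes that rose were ISG20, ISG15, USP18, PLSCR1, IFIT1, IFI44 and RSAD2. The median log2 change was 0.37, with all measured genes at 0.

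ISG20 changed most, 3.15-fold higher at day 3 than at day 1, followed by ISG15 at 2.44-fold, USP18 at 2.33-fold, PLSCR1 at 2.32-fold and IFIT1 at 2.16-fold. IFI44L (1.98-fold) and EPSTI1 (1.97-fold) lay just under the rule. Set against the probe error of 0.31 log2, 22 genes were higher at day 3 than at day 1 by more than 1 SD and 13 lay within it. Over all 9318 measured genes, 27.4% were higher by more than 1 SD, 45.5% lay within it and 27.1% were lower. The other 5 genes of the list were lower by more than 1 SD: GBP2 by -0.96 log2, GBP1 by -0.73, IFITM2 by -0.55, SAMD9L by -0.45 and HERC6 by -0.39. The probe error does not cover genes below background at day 0, such as IFITM2.

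Counted by day, 21 of the 40 genes met the rule at both days, 3 at day 1 alone (GBP1, GBP2 and IFITM2) and 7 at day 3 alone (EIF2AK2, IFI6, IFIT5, ISG15, ISG20, RSAD2 and USP18). Of the 9500 genes measured in either comparison, 3.2% met it at both days, 5.81% at day 1 alone and 1.59% at day 3 alone. Both comparisons share the day 0 array. Some of the calls in the list lay close to the rule. At day 1 those of EPSTI1, HERC5, PLSCR1, IFITM2 and SP110 were lost under at least 1 alternative of the processing, at day 3 those of EIF2AK2 and IFI6, and for day 3 against day 1 those of IFI44 and RSAD2. The remaining 9 genes met the rule at neither day. These were ADAR, APOL1, BST2, IFI16, LAP3, NMI, SAMD9, SP100 and UBE2L6.

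**Figure D5:**
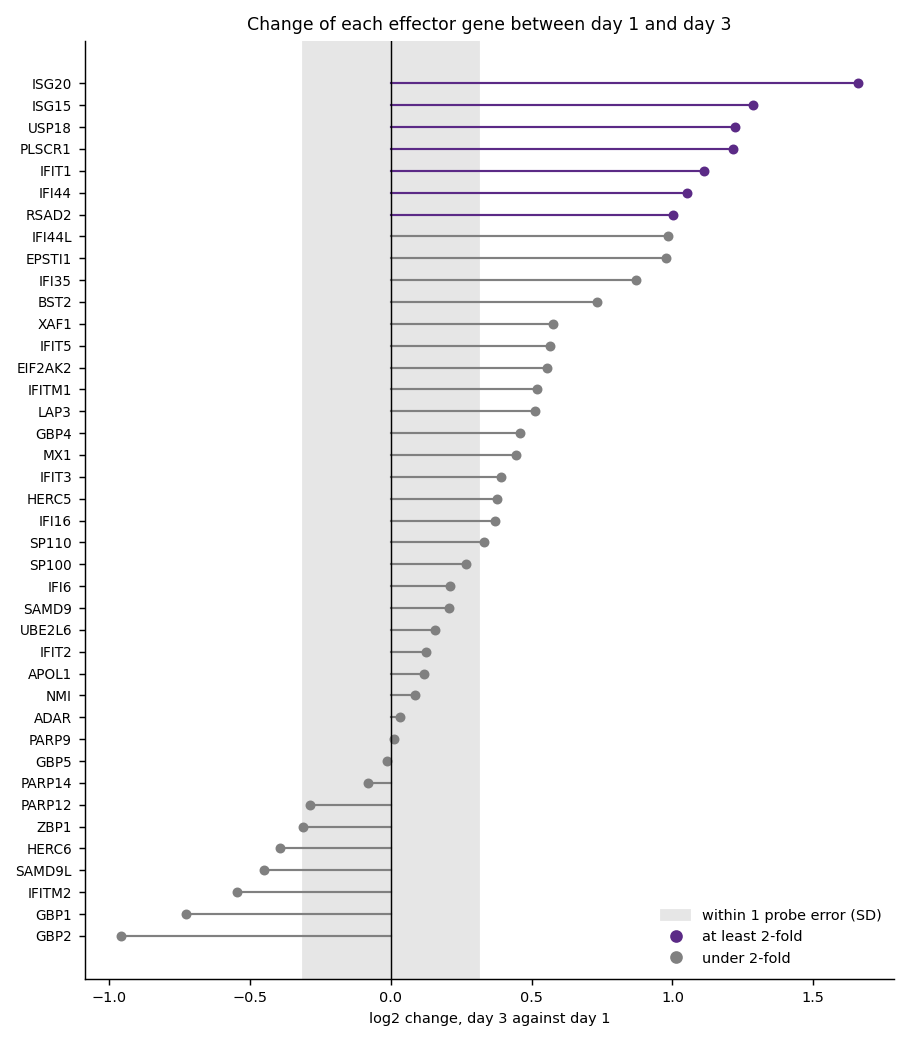
Log2 change of each measured effector gene at day 3 against day 1, sorted, with the band of 1 probe error (SD of 0.31). Purple marks the 7 genes at least 2-fold higher, from RSAD2 at 1.00 to ISG20 at 1.66, and GBP2 is lowest at -0.96.

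The promoter matches were set beside these calls. Of the 25 genes with a window that rose at day 1 or day 3, 20 held an ISRE core and 10 an ETS-IRF core. Of the 8 measured genes with a window that did not rise, 4 held an ISRE core (BST2, LAP3, NMI and SAMD9) and 0 an ETS-IRF core. A further 6 genes with a window were not measured. Of these, 4 held an ISRE core (DTX3L, IFI27, IFITM3 and LGALS3BP) and 2 an ETS-IRF core (CMPK2 and DTX3L). Among all genes with a window the shares were 4.38% and 3.47%. The gamma-activated site lay in 7 of the 25 genes that rose and 2 of the 8 that did not. It also lay in 1 of the 6 not measured, against 9.38% of all genes. The PU.1 core lay in 1 of the 25, 0 of the 8 and 0 of the 6, against 3.15%. HERC6, IFI35, SAMD9L, SP110 and XAF1 rose with no ISRE core in their windows, and IFI35 and SP110 held an ETS-IRF core. A match is a match of letters and not a binding site.

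The rest of the interferon pathway was read from a list of ligands, receptors, kinases, factors, inhibitors and sensors. Of 36 genes with a probe, 27 were above background on at least 1 array. Of these 9 rose at day 1 and 4 at day 3, where 9.19% and 4.95% of all measured genes rose. At either day 0 fell, where 7.98% and 2.13% of all measured genes fell. Among 7 ligands, IFNG alone came above background, at day 3 only, with intensities of 52.1, 56.2 and 78.4. The probe for IFNB1 read 28.5, 39.7 and 48.4 and was not above background on any array, nor were those for IFNA1, IFNA2, IFNL1, IFNE and IFNK. Interferon protein was not measured.

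None of the receptors rose, though 5 of the 6 were above background on all arrays. IFNAR1 and IFNAR2, the type I receptor, changed by 0.64 and 0.33 log2 at day 1 and by 0.10 and 0.15 at day 3. IFNGR1 and IFNGR2, the interferon gamma receptor, changed by 0.82 and 0.41 at day 1 and by 0.75 and 0.25 at day 3. IL10RB, which interferon lambda and interleukin-10 receptors share, changed by 0.35 and 0.51, and IFNLR1 was not above background.

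Of 6 kinases and factors with a probe, 5 rose at day 1 and 2 at day 3. Of all measured genes, 9.19% and 4.95% rose at these days. IRF9, the DNA-binding part of ISGF3, had intensities of 786.4 at day 0, 1763.6 at day 1 and 1822.6 at day 3, 2.61-fold and 2.68-fold higher after normalization. JAK2 rose 2.25-fold and 2.20-fold. JAK1 (2.02-fold), TYK2 (2.39-fold) and IRF1 (2.12-fold), a factor that binds IRF elements, rose at day 1 alone. The calls of JAK1, JAK2 and IRF1 lay close to the rule, and no values under the alternatives are given here for pathway genes. At a similar size in the list, EPSTI1 (2.24-fold at day 1) lost its call under some alternatives, while IFI35 (2.26-fold) kept it.

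Among inhibitors, PTPN6 (the phosphatase SHP-1) had log2 signals of 6.05, 10.07 and 7.63. PIAS1 rose 2.25-fold at day 1, also close to the rule. PTPN6 rose 16.2-fold at day 1 and 2.98-fold at day 3 and fell 2.45 log2 between day 1 and day 3. The feedback inhibitors SOCS1 and SOCS3, which are themselves raised by cytokine signals, changed by -0.39 and -0.30 log2 at day 1 and by 0.04 and -0.29 at day 3. Of the sensors, RIGI, which detects viral RNA, was at least 2.98-fold and at least 3.3-fold higher. STING1, the adaptor of cytosolic DNA sensing, rose 2.66-fold at day 1. TLR7, a sensor of RNA in endosomes, rose between day 1 and day 3, by 2.14-fold.

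The probe for SPI1 itself was not above background on any array, with intensities of 40.8, 35.3 and 38.9, so the induction of PU.1 could not be seen in these values. The sources used here do not say whether that probe can read the introduced gene. Between 22.3% and 23.2% of the 48701 probes were above background on each array, and the median intensity lay between 35.9 and 36.8. All 8 markers of Hodgkin lymphoma cells were above background on every array, with summed intensities of 23353.6, 30545 and 30047. Of them 2 rose at day 1 and 4 at day 3, where 9.19% and 4.95% of all measured genes rose, and 0 fell. CCL22 and CD40 rose at both days, and CCL17 and TRAF1 at day 3 alone. TNFRSF8 (-0.55 log2 at day 3), FSCN1 (0.11), CD70 (0.06) and IRF4 (-0.15) rose at neither day. None of 5 B cell, 4 T cell and 5 monocyte and macrophage markers with a probe was above background on any array, with sums of 221.1, 224.1 and 216.3 for B cell, 136.9, 162.3 and 158 for T cell and 201.6, 223.2 and 217.2 for monocyte and macrophage markers. Of 4 markers of plasmacytoid dendritic cells, a main source of interferon, IL3RA and TCF4 were above background and CLEC4C and LILRA4 were not. Whether any of these markers bears on the effector genes was not tested. In RNA from whole cultures, a change in the number of cells that hold a transcript cannot be told apart from a change in its amount per cell.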

How the data were processed

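RNA of L428tetPU.1 cells was hybridised to 3 Illumina bead arrays, 1 for each of day 0, day 1 and day 3, read out in BeadStudio 3.3.7 as the submitters' processing notes give it. The design text speaks of 4 independent experiments, yet a day has a single column, so the groups have no replicates and the number of arrays limits the precision. Per the file headers, the deposited non-normalized table gives every one of the 48701 probes an intensity and a detection p-value on each array. The value table that the authors deposited is in log2, and the sources used here do not describe its normalization. Compared with the intensities, it matched their log2 after subtraction of the array's 75th percentile and of the probe's median over the arrays, to within 1e-05. Scale, centring and direction are known from this, and the median of each column was 0.

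Background was removed in R 4.3.3 by the normexp method (limma 3.58.1), which took the background from the detection p-values. Quantile normalization and log2 followed after adding an offset of 16, which draws the changes of dim probes toward 0. The inferred background mean was 33.2, 32.5 and 33.0 at day 0, day 1 and day 3, with an SD of 9.84, 9.48 and 9.86. Quantile normalization removes a shift that most genes share. Python 3.11.15 (numpy 2.4.6, pandas 2.3.3, matplotlib 3.10.9) did the rest. The steps were tested on simulated data.

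Genes were named from the platform's annotation, updated through RefSeq. Of all probes 24303 had 1 symbol, 0 several and 24398 none, and the last stayed unnamed. All genes of the list are named, in role groups, and outside it SPI1, the markers and a fixed list of pathway genes. From that list the ligands, receptors and IRF9 are named, as are genes past the rule at day 1 or day 3, while SOCS1, SOCS3 and TLR7 were added after their values were seen. The genes and lists were chosen with earlier results of these data known. Genes whose brightest probe had a detection p-value below 0.01 on either array of a pair count as measured in it, and were called at 2-fold. The bound sets the brighter array's signal against the lowest signal above background on the other array, or the dim probe's own if higher. The probe error is the SD, over genes with 2 probes, of the gap between both probes' changes, over the square root of 2.

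The alternatives, 11 for each count, 9 for each median and 7 to 9 for each gene, since a gene has no value where a setting leaves its probe unmeasured, varied the background correction, the offset, the scaling, the source of the values, the detection filter, the probe of a gene and the size rule.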

Additional observations from a re-analysis of the deposited data

How the results depend on the processing

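No value of the list changed its direction past the rule under any alternative tried. Among smaller changes, that of BST2 at day 3 went from 0.10 log2 to -0.04 at the lowest. That of PARP9 between day 1 and day 3 went from 0.01 to -0.02. The rises kept under every alternative that gave the gene a value were those of 19 of 24 genes at day 1, 26 of 28 at day 3 and 5 of 7 for day 3 against day 1. Of these kept genes 3, 4 and 1 had no value under 1 setting, IFIT1 and IFIT3 with the first probe by ID, and ZBP1 and RSAD2 where all 3 arrays had to be above background. Apart from the size rule, the count of rises ran from 21 to 25 at day 1, from 26 to 30 at day 3 and from 5 to 7 for day 3 against day 1. The number of genes counted differed by setting, from 35 with all 3 arrays above background to 47 with no detection filter. The median log2 change ran from 1.06 to 1.37, from 1.61 to 1.90 and from 0.33 to 0.39. At day 1, EPSTI1 and HERC5 fell short of 2-fold after scaling to the 75th percentile and in the authors' deposited table, and PLSCR1 in that table. The bound of IFITM2 fell short without background correction or with an offset of 50, and that of SP110 as the mean of its probes, whose change itself was 1.26 log2. At day 3, EIF2AK2 and IFI6 fell short under both other scalings, which moved genes above background on both arrays by a median of -0.12 and -0.10 log2. For day 3 against day 1, IFI44 fell short in the authors' deposited table and RSAD2 under 4 settings. With a detection p-value under 0.05 or no filter, RSAD2 passed at day 1 and IFITM2 and SAMD9 at day 3. The counts followed the size rule by construction. With a 1.5-fold rule 1 gene fell at day 1, and for day 3 against day 1 there were 11 that rose and 2 that fell. With a 3-fold rule 15 rose at day 1 and 1 for day 3 against day 1. No paired analysis was possible because each day had 1 array. Dim signals limit the genes not above background at day 0, whose changes are bounds.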
